A study of Homo sapiens with 8 samples.

Results

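PSCA, NCAM1, ARMC4 and PKIB were the 4 genes examined, in the human colorectal carcinoma line HCT-116, with Agilent arrays whose 60-base probes each read 1 stretch of RNA. They were chosen from these data for the size of their difference between R50 and WT cells, PSCA and NCAM1 among the largest rises and ARMC4 and PKIB the largest falls of called genes measured well above background on all 4 arrays. Every non-control probe that carries one of these gene names was taken, which gave 7 of the 50599 probes on the array, with 5 of the 28677 that could be tested. The 8 arrays form 4 groups of 2 biological replicates, all cultured in medium with serum. WT is the untreated parental line. WT+NU6102 is the same line after 24 h in 20 µM NU6102, a purine inhibitor of CDK1 and CDK2. The paper reports that growth stopped at this dose, with treated WT cells arrested in G2/M. CDK2 KO is a purchased HCT-116 line with CDK2 deleted, untreated. R50 cells descend from colonies that grew out in 50 µM NU6102 and were maintained in that dose, so they differ from WT+NU6102 in dose, in time and in selection.

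All 4 proteins have well known roles, none of them in the cell cycle engine that NU6102 blocks. PSCA (prostate stem cell antigen) is a small glycoprotein held on the cell surface by a lipid anchor, a member of the LY6/uPAR family, made by epithelia of the prostate, bladder and stomach. NCAM1, also called CD56, is an adhesion molecule of the immunoglobulin superfamily that binds its own kind on neighbouring cells and is known from neurons and natural killer cells. ARMC4, now named ODAD2, belongs to the docking complex that fixes outer dynein arms to the microtubules of motile cilia. PKIB is an inhibitor of protein kinase A, the kinase that cyclic AMP switches on, and acts by occupying its free catalytic subunits.

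The probes show which stretch of each transcript was measured. Sequences are given for the NCAM1 probes, for 1 of the ARMC4 probes and for the PKIB probe. NCAM1 was read by 3 probes on chromosome 11 of hg19. A_23_P1740 lies at chr11:113103444-113103503 and is open in 1 of its forward reading frames, A_33_P3363804 at chr11:113135858-113135917, and A_33_P3363799 at chr11:113149074-113149133. The first is printed whole and the others by their last 30 bases, and capitals mark a polyadenylation hexamer.
NCAM1 A_23_P1740: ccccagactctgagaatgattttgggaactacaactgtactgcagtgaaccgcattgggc
NCAM1 A_33_P3363804: gcattATTAAAggaaataacagttcatgtg
NCAM1 A_33_P3363799: actttgcattctgtcggaatacttgtgttc
ARMC4 A_32_P141418: cgattttAATAAAaaggatatggccttccc
PKIB A_23_P145529: aatttctgcatgttgaaagacttagtggtt
The ARMC4 probe A_32_P141418 lies at chr10:28101099-28101158 on the minus strand, and a second ARMC4 probe, A_33_P3364826, at chr10:28247800-28247859. PKIB was read by A_23_P145529 at chr6:123046337-123046396, which over its whole length is also open in 1 forward reading frame. An open frame in a probe this short does not show that it lies in coding sequence. Positions are those printed in the WT and WT+NU6102 scanner files, and an annotation of exons in that build was not used here.

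Signals are the scanner's background-subtracted intensities, and normalized levels are their log2 less the 75th percentile of the array, so that 0 is the signal of that percentile. A probe's levels were compared only with its own levels on other arrays. The 4 groups were fitted together with limma over all 28677 tested probes, and p-values were adjusted over all of them. A gene, read by its brightest probe, was called changed when the adjusted p was below 0.05 and the log2 fold change 1 or more in size. Comparisons with R50 served to choose the 4 genes, so their values in R50 are given as a description with no test. The arrays had 32376 to 36206 spots well above background, and replicate arrays correlated with r between 0.9937 and 0.9958 across probes. WT and WT+NU6102 were on 1 slide and CDK2 KO and R50 on another, so that slide and group cannot be told apart in any comparison between those pairs. CDK2 itself was lower in CDK2 KO than in WT by a log2 fold change of −0.78 (limma adjusted p = 0.000271), and whether its probe lies within the deleted part is not given in the sources used here. Of 7 epithelial markers, 6 were well above background in every group, with EPCAM between 6.20 and 6.60, and VIL1 in none. Of 7 fibroblast markers only COL1A1 was well above background on both arrays of any group, at log2 fold changes of 1.22 in CDK2 KO (called) and 0.66 in R50 (not called) against WT. In RNA from whole cultures, a change in the share of cells that carry a transcript and a change per cell cannot be told apart.

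The data go against calling these genes switched on or off in R50. PSCA and NCAM1 were already well above background on both WT arrays, and ARMC4 and PKIB were still so on both R50 arrays. Among the genes called in R50 against WT, 89 higher genes were not well above background on either WT array and 79 lower genes on neither R50 array, and none of the 4 is among them. In order of size over called genes measured on all 4 arrays, with 254 rises and 98 falls, PSCA and NCAM1 held ranks 2 and 3 of the rises, below ABCG2, a drug efflux transporter, at 7.34 and above ZBED2 at 4.17. ARMC4 and PKIB held ranks 1 and 2 of the falls, and CLDN2, a claudin of tight junctions, followed at −3.53. In that comparison 2.63% of the 21595 genes tested were called, 1.72% higher and 0.908% lower. With normexp background correction the called probes were 242 higher and 77 lower, in place of 469 higher and 273 lower.

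PSCA, read by 1 probe (A_23_P71379, at chr8:143763976-143764035), had a different level in each of the 4 groups. Its signal was 155 and 139 on the WT arrays, 62.8 and 66.0 after NU6102, 642 on both CDK2 KO arrays, and 5566 and 5292 in R50. The order ran from WT+NU6102 through WT and CDK2 KO to R50, and the gap between R50 and WT was set by the choice of the gene. The mean normalized level was −2.29 ± 0.09 in WT, −3.52 ± 0.09 in WT+NU6102, −0.05 ± 0.01 in CDK2 KO and 2.97 ± 0.07 in R50 (SD, n = 2 each). R50 was 38.2-fold above WT, 8.08-fold above CDK2 KO and 89.8-fold above WT+NU6102. Outside R50, PSCA fell by 1.23 on the log2 scale after NU6102 (95% interval −1.42 to −1.05, limma adjusted p = 0.000233). It rose by 2.24 in CDK2 KO against WT (2.06 to 2.43, limma adjusted p = 5.42e-05), a 4.73-fold difference. PSCA therefore lay below WT with the inhibitor and above WT with the gene deleted. The direct comparison of CDK2 KO with WT+NU6102, which shares no array with the choice of the genes, gave 3.47 (3.29 to 3.66, limma adjusted p = 1.19e-05), or 11.1-fold. With normexp background correction the fall after NU6102 was 0.74 and no longer met the minimum fold.

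NCAM1 was highest in R50. Its brightest probe, A_33_P3363799, was well above background in WT and R50 and in neither of the other groups. It gave 106 and 109 in WT and 3035 and 2821 in R50, against 11.0 and 12.0 after NU6102 and 9.10 and 4.83 in CDK2 KO. On this probe all 4 arrays of WT+NU6102 and CDK2 KO were not well above background, and the R50 arrays stood far above all others. The mean normalized level was −2.74 ± 0.06 in WT and 2.08 ± 0.10 in R50 (SD, n = 2 each), a 28.2-fold difference. Where a group was not well above background, its level was replaced by the lowest signal that was, which gives a lower bound under this processing. P-values and calls given beside such bounds, here and below, rest on the measured levels without that replacement. By this bound R50 was at least 121-fold above WT+NU6102 and at least 148-fold above CDK2 KO. NCAM1 was at least 4.29-fold lower in WT+NU6102 than in WT (limma adjusted p = 0.000555). In CDK2 KO it was at least 5.25-fold lower than in WT (limma adjusted p = 0.000541). With normexp background correction the R50 log2 differences were smaller, at 5.26 from WT+NU6102 and 5.35 from CDK2 KO. The differences from WT were then −1.08 after NU6102 and −1.17 in CDK2 KO. Between CDK2 KO and WT+NU6102, both not well above background, the measured difference was −0.63 (−1.33 to 0.07, limma adjusted p = 0.11).

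The other NCAM1 probes were dim outside R50, and 1 of them in R50 as well. A_23_P1740, printed whole above, gave 148 and 153 in R50 and between 5.64 and 30.8 on the other 6 arrays. Outside R50 it was well above background on 1 of 2 arrays in each group. The measured R50 signal was 6.08-fold above that of WT on this probe, with 1 of the 2 WT arrays not well above background. Its differences outside R50 were −0.15 after NU6102 (limma adjusted p = 0.888) and −0.91 in CDK2 KO (limma adjusted p = 0.394), but its WT signals of 22.0 and 29.8 lay at the limit of detection, where little or no fall can be measured. A_33_P3363804, the probe with the hexamer ATTAAA, was not well above background on any of the 8 arrays, with signals between 4.14 and 7.13, and was not tested. The file assigns it to other NCAM1 transcripts (NM_001242608) than A_33_P3363799 (NM_001242607). On 2 of the 3 probes the NCAM1 signal was higher in R50 than on all other arrays. A_23_P1740 passed the filter for testing only through its R50 arrays, and NCAM1 was chosen for its rise in R50. Its R50 values are therefore a description and no separate support for that rise.

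ARMC4 was highest in WT and lowest in R50. Its signal was 1368 and 1232 in WT, 717 and 732 after NU6102, 501 and 459 in CDK2 KO and 72.9 and 84.2 in R50. Each group was well above background. The mean normalized level was 0.86 ± 0.08 in WT, −0.03 ± 0.06 in WT+NU6102, −0.47 ± 0.07 in CDK2 KO and −3.14 ± 0.13 in R50 (SD, n = 2 each). R50 was 16.0-fold below WT, 8.68-fold below WT+NU6102 and 6.40-fold below CDK2 KO. ARMC4 fell by 0.88 after NU6102 (−1.10 to −0.67, limma adjusted p = 0.000823), short of the minimum fold for a call. It fell by 1.32 in CDK2 KO against WT (−1.54 to −1.11, limma adjusted p = 0.000395), and CDK2 KO was below WT+NU6102 by 0.44 (limma adjusted p = 0.00765). The second probe, A_33_P3364826, was well above background on 1 array alone, WT+NU6102 replicate 2, at a signal of 387 against 4.95 on its replicate and at most 11.7 on the other arrays.

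PKIB was low in R50 and high in CDK2 KO. Its signal was 871 and 781 in WT, 481 and 457 after NU6102, 1820 and 1814 in CDK2 KO and 51.7 and 53.1 in R50. PKIB was the only one of the 4 genes whose order ran from R50 through WT+NU6102 and WT to CDK2 KO. The mean normalized level was 0.20 ± 0.09 in WT, −0.66 ± 0.01 in WT+NU6102, 1.46 ± 0.01 in CDK2 KO and −3.73 ± 0.01 in R50 (SD, n = 2 each). R50 was 15.2-fold below WT, 8.40-fold below WT+NU6102 and 36.3-fold below CDK2 KO, the last being a comparison within 1 slide. PKIB fell by 0.86 after NU6102 (−0.995 to −0.72, limma adjusted p = 0.000279), short of the minimum fold. It rose by 1.25 in CDK2 KO against WT (1.12 to 1.39, limma adjusted p = 0.000125) and was 4.32-fold higher in CDK2 KO than in WT+NU6102 (limma adjusted p = 1.82e-05).

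**Figure D1:**
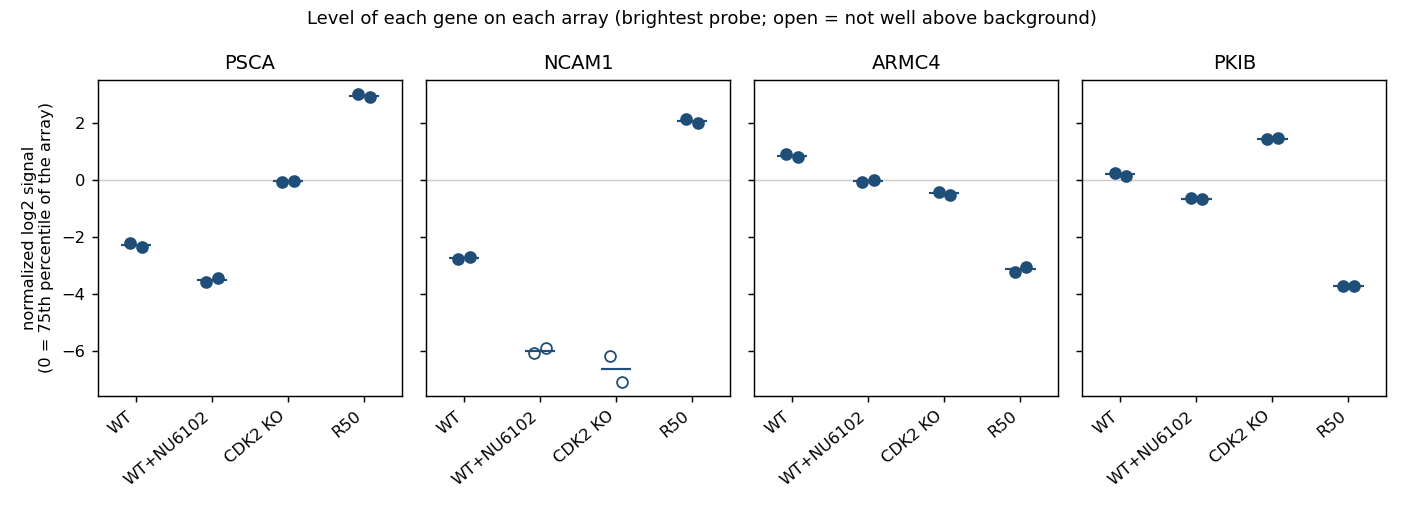
Normalized log2 signal (y axis, 0 = the 75th percentile of the array) of the brightest probe of PSCA, NCAM1, ARMC4 and PKIB on each of the 8 arrays, by group (x axis). Points are arrays, bars are group means and open points are not well above background. R50 is the highest group for PSCA and NCAM1 and the lowest for ARMC4 and PKIB, while CDK2 KO lies above WT for PSCA and PKIB and below it for NCAM1 and ARMC4.

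Across the comparisons without R50, the 4 genes moved in the same direction after NU6102 and in both directions in CDK2 KO. After NU6102, all 4 were lower than in WT at an adjusted p under 0.05, against 21.1% of all genes tested that were lower at that threshold. PSCA and NCAM1 were called lower and none higher, where 6.3% of all genes tested were called, 5.19% lower and 1.12% higher. In CDK2 KO against WT, PSCA and PKIB were called higher and NCAM1 and ARMC4 lower, where 4.67% of genes were called, 2.43% higher and 2.25% lower. In CDK2 KO against WT+NU6102, PSCA and PKIB were called higher and none lower, where 11.1% of genes were called, 7.63% higher and 3.45% lower. The first and second of these comparisons use the WT arrays that also served to choose the genes. With an unpaired test run probe by probe, without the variance shared across probes, the Benjamini-Hochberg adjusted p in CDK2 KO against WT was 0.0795 for NCAM1 and 0.0538 for ARMC4, and neither passed.

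**Figure D2:**
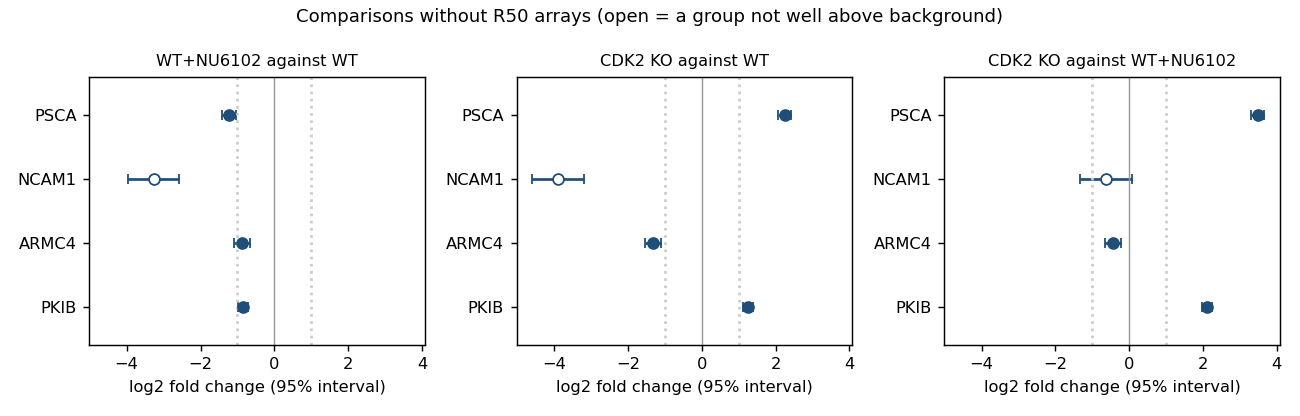
Log2 fold change (x axis) with its 95% interval from limma for the brightest probe of each gene (y axis) in the 3 comparisons that use no R50 array. Open points have at least 1 group not well above background and dotted lines mark the minimum change for a call. All 4 genes lie left of 0 after NU6102, and PSCA and PKIB lie right of 0 in both CDK2 KO comparisons.

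Position on the chromosome was not used to choose the genes. Within 1 Mb of each probe, 36 other genes were tested around PSCA, 18 around ARMC4, 12 around NCAM1 and 4 around PKIB. ARMC4 sits between MKX, a homeobox transcription factor gene 139 kb toward lower coordinates, and MPP7, a gene for a scaffold protein of cell junctions 239 kb the other way, and both were lower in R50. MKX had normalized levels of −0.43 and −0.33 in WT and −3.62 and −4.17 in R50, a log2 fold change of −3.52 (limma adjusted p = 0.000398). MPP7 had 1.03 and 1.05 in WT and −1.48 and −1.85 in R50, a log2 fold change of −2.71 (limma adjusted p = 0.000325). These nearest tested genes on either side were the only ones called among the 18, whose median was −0.15. In R50 against WT, 2.63% of all genes tested were called. Outside R50, MKX fell by 1.14 in CDK2 KO against WT (limma adjusted p = 0.00645) and MPP7 by 1.30 after NU6102 (limma adjusted p = 0.000733), while MKX after NU6102 and MPP7 in CDK2 KO were −0.82 and −0.66.

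PSCA lies in a cluster of LY6 family genes, and 1 of them had the same order of groups. LY6D, a surface protein of keratinocytes 102 kb away, had normalized levels of 0.81 and 0.66 in WT, −2.15 and −2.02 after NU6102, 3.36 and 3.22 in CDK2 KO and 4.41 and 4.28 in R50. It was called in all 3 comparisons with WT, at −2.82 after NU6102 (limma adjusted p = 8.38e-05), 2.55 in CDK2 KO (limma adjusted p = 6.98e-05) and 3.61 in R50 (limma adjusted p = 8.21e-05). It was the only one of the 36 genes called in R50, where 2.63% of all genes tested were called. The nearest tested genes on either side were LOC100508233, 2.5 kb away and at −0.04 in R50, and LY6K, 20.8 kb away. LY6K rose by 2.77 in CDK2 KO (limma adjusted p = 6.48e-05) and was at 0.69 in R50. SLURP1, LYNX1 and GML, of the same family and between 58.4 and 164 kb away, lay between 0.02 and 0.54 in R50 against WT and were not called.

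Few genes near NCAM1 and none near PKIB were called in R50, where 2.63% of all genes tested were called. Of 12 genes near NCAM1 only ANKK1, a kinase gene 122 kb away, was called, at least 2.38-fold higher than in WT, where it was not well above background (limma adjusted p = 0.0332). LOC100288346 and TTC12, the nearest on either side at 8.8 and 87.9 kb, were at 0.07 and 0.06 and well above background on all 8 arrays. The 4 genes near PKIB lay between 0.01 and 0.15 in R50 against WT, with SERINC1 and SMPDL3A as nearest on either side. SMPDL3A rose by 1.53 in CDK2 KO against WT (limma adjusted p = 0.000179), where PKIB rose as well.

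**Figure D3:**
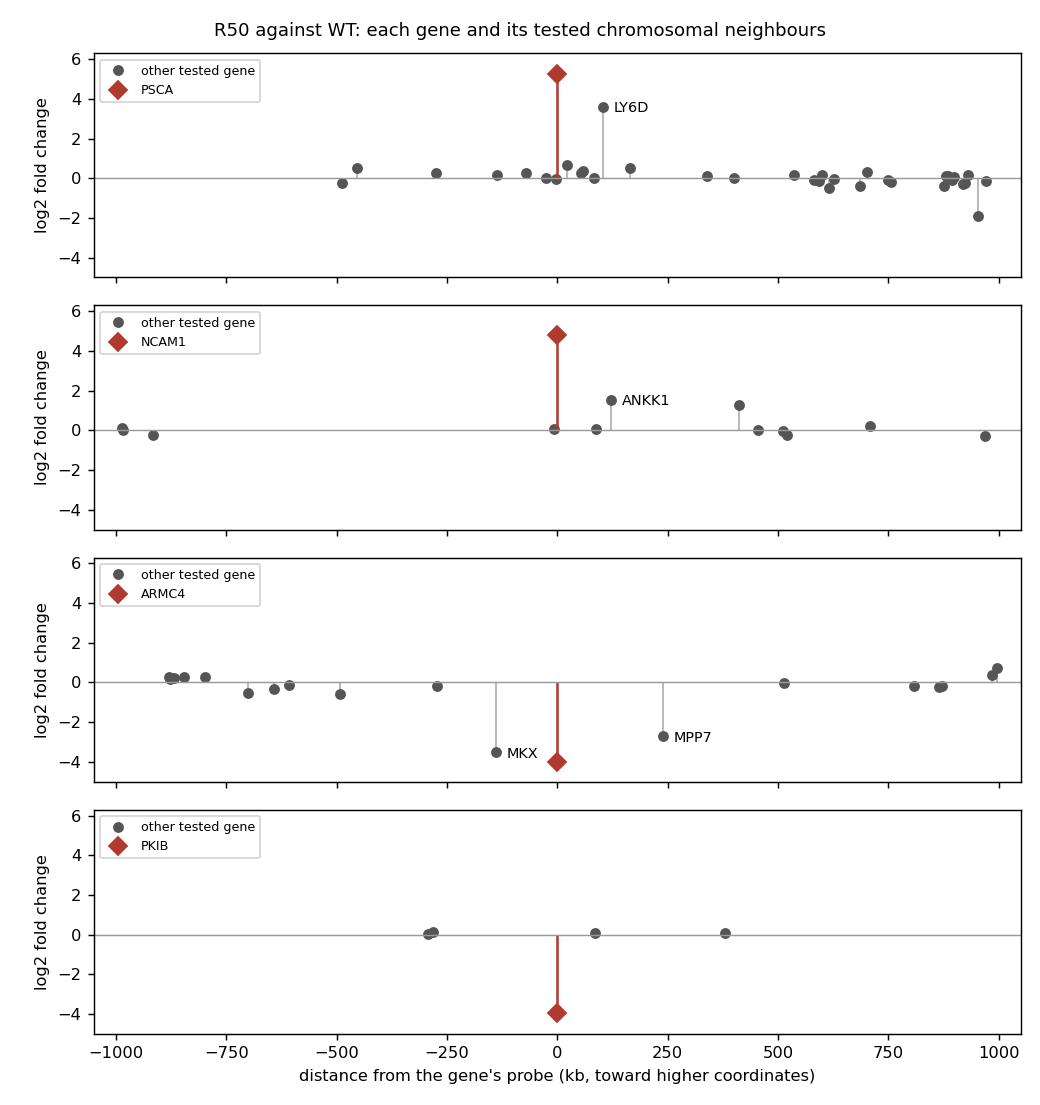
Log2 fold change of R50 against WT (y axis) for each of the 4 genes (red diamonds, at 0) and for every other tested gene within 1 Mb (grey points), by distance between probes in kb (x axis). MKX and MPP7 lie with ARMC4 well below 0, LY6D lies with PSCA well above 0, and most other neighbours lie near 0.

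The sequence upstream of PKIB is shown because cyclic AMP signalling acts through CREB, a factor known to bind the half-site TGACG, and PKIB sits in that pathway. RefSeq promoter windows on GRCh38.p14 were found for 2 of the 4 genes, PKIB and ARMC4 (as ODAD2), with 3 start sites each. The 250 bases before the first PKIB start, at chr6:122471671-122471920 on the plus strand, follow with TGACG on either strand in capitals.
PKIB upstream: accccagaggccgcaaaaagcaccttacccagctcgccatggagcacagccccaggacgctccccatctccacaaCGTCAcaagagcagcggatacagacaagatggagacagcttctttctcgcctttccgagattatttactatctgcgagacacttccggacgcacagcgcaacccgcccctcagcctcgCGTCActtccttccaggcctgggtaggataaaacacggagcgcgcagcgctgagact
This window holds 2 matches, the window of the second start 1 and that of the third 0. Of 35116 such windows over all genes, 21.2% hold TGACG on either strand. GTTGCC, a half-site bound by RFX factors of ciliary genes, was found on neither strand of any ARMC4 window, and 10.2% of all windows hold it. The arrays do not show which start was used.

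The genes whose pattern over the 8 arrays was most like each of the 4 were taken from 798 genes whose group means spanned at least 2 log2 units. The points share the 4 groups and their slides, so r describes these arrays only. For PSCA the closest was S100P, a calcium-binding protein (r = 0.9953), followed by SPNS2, SCARNA11, CLIC3 and AQP7P3. S100P had means of −1.08 in WT, −1.76 after NU6102, −0.05 in CDK2 KO and 1.98 in R50, the same order as PSCA over a narrower range. For NCAM1 the closest was CALB2, the calcium-binding protein calretinin (r = 0.9945), well above background on all 8 arrays. Its means were −2.57 in WT, −3.98 after NU6102, −4.09 in CDK2 KO and −0.98 in R50. SH2D1B, MGP, DENND2A and LEMD1 followed, of which SH2D1B, an adaptor known from natural killer cells, and MGP, a matrix protein, were well above background only on the 2 R50 arrays.

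For ARMC4 the closest gene of all 798 was its neighbour MKX (r = 0.9896), and its neighbour MPP7 the fifth (r = 0.9316). HTR7P1, HTR7 and SAMD3 (r = 0.9797, 0.978 and 0.9583) lay between them. HTR7 is a serotonin receptor gene and HTR7P1 its pseudogene copy, and their probes may read the same RNA. HTR7 had means of 3.17 in WT, 2.46 after NU6102, 1.82 in CDK2 KO and 0.52 in R50. For PKIB the closest was MARCKS, an actin-binding substrate of protein kinase C (r = 0.996), at 2.46 in WT, 1.92 after NU6102, 2.87 in CDK2 KO and 0.67 in R50. WNT16, ZNF573, PDE4B and DSC3 followed. WNT16, a secreted Wnt ligand, was not well above background in R50 and at least 8.58-fold lower there than in WT.

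**Figure D4:**
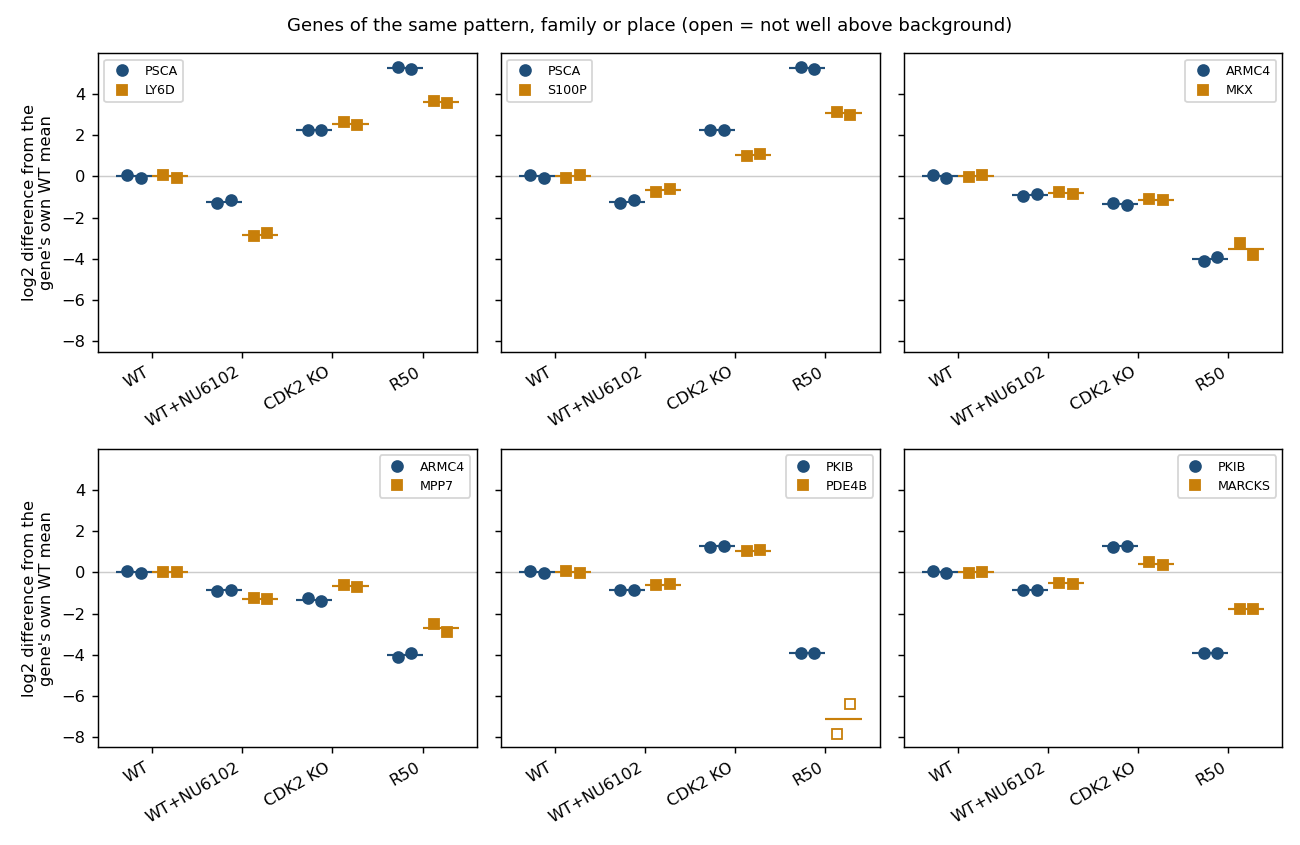
Log2 difference of each array from the gene's own WT mean (y axis) by group (x axis), for 6 pairs of one of the chosen genes (blue circles) and a gene of similar pattern, family or position (orange squares). Points are arrays, bars are group means and open points are not well above background. LY6D and S100P run in the order of PSCA, MKX and MPP7 fall with ARMC4 in R50, and PDE4B drops to background in R50 where PKIB stays above it.

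The other members of each gene's pathway or family were counted from lists chosen with earlier results of these data known. Of 21 tested LY6/uPAR family genes, LY6D and LYPD6 were called higher in R50 and none lower. LYPD6, a modulator of Wnt signalling, was at 1.18 in R50 and 1.11 in CDK2 KO against WT (limma adjusted p = 0.00142 and 0.00084). In CDK2 KO, LY6D, LY6K, LYPD6 and LY6G5C were called higher and none lower, and after NU6102 only LY6D was called, lower. Over all genes, 2.43% were called higher and 2.25% lower in CDK2 KO, 5.19% lower after NU6102 and 1.72% higher in R50. The median of the list was 0.16 in R50, 0.22 in CDK2 KO and −0.03 after NU6102, beside −0.04, 0.02 and 0.04 over all genes.

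Of 16 tested immunoglobulin-family adhesion molecules and partners, L1CAM, a neural adhesion molecule, was the only one called in R50, at 1.48 against WT (limma adjusted p = 0.00536). Its WT levels of −4.73 and −4.76 were close to the lowest signals above background. FGFR1, a receptor that NCAM1 engages, was at −0.29 in R50 (limma adjusted p = 0.102), and NCAM2 at 0.32 (limma adjusted p = 0.454). After NU6102, SPTBN1, a spectrin that links NCAM1 to the cytoskeleton, fell by 1.34 (limma adjusted p = 0.00106), and in CDK2 KO against WT none of the 16 was called. The median of the 16 lay between −0.03 and 0.03 in these 3 comparisons. Over all genes tested, 2.63% were called in R50, 6.3% after NU6102 and 4.67% in CDK2 KO against WT.

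NCAM1 is also a marker of neuronal and neuroendocrine cells, and most other markers of that kind were not well above background in WT or R50. Of 18 on the array, 6 were well above background on both WT arrays and on both R50 arrays. SYP, CHGA, INSM1 and NEUROD1, which mark neuroendocrine cells, were not well above background in any group. SCG2, a secretory granule protein, was the only one called in R50 against WT, at 1.71 (limma adjusted p = 0.00023), where 2.63% of all genes were called. It was at 1.75 in CDK2 KO (limma adjusted p = 7.51e-05), where the brightest NCAM1 probe was not well above background. GRP, a neuropeptide, was like that probe highest in R50 and below WT after NU6102 and in CDK2 KO, over a narrower range. Its means were −3.08 in WT, −4.01 after NU6102, −4.04 in CDK2 KO and −2.68 in R50. The differences of GRP from WT were −0.93 after NU6102 (limma adjusted p = 0.00346), −0.96 in CDK2 KO (limma adjusted p = 0.00528) and 0.40 in R50 (limma adjusted p = 0.0963), none large enough for a call. Other markers well above background in every group did not share this pattern. TUBB3 and ENO2 were highest after NU6102, and MAP2 and SNAP25 in CDK2 KO. Of 7 leukocyte and natural killer cell markers, 5 were well above background in R50 and 5 in WT, none was called in R50 against WT, and their summed linear level was 1.71 to 1.82 in R50 against 1.65 in WT. NKG7 was well above background on both WT arrays and neither R50 array, and CD3E the reverse. KLRD1, a natural killer cell receptor, was not well above background in any group. The part of other cell types in the NCAM1 signal was not tested.

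Of 25 other motile cilium genes tested, none was called in either direction in R50 against WT, where 2.63% of all genes were called, a share that is under 1 gene in a list of this size. Their median was 0.03. CCDC151 and TTC25, partners of ARMC4 in the docking complex, were at 0.12 (limma adjusted p = 0.423) and 0.37 (limma adjusted p = 0.0197). CCDC114, another partner, was 1.74-fold higher in R50 than in WT, with means of −1.02 and −1.82, and not called. After NU6102, 4 of the 25 were called lower and none higher, where 5.19% of all genes were called lower and 1.12% higher. These were FOXJ1, the transcription factor that drives motile ciliogenesis, at least 2.58-fold lower (limma adjusted p = 0.00216), CCDC114, a docking complex partner, at −1.44 (limma adjusted p = 0.000168), RSPH1, a radial spoke protein, at −1.32 (limma adjusted p = 8.69e-05), and DNAH1, an inner arm dynein, at least 1.85-fold lower (limma adjusted p = 0.00268). The call of DNAH1 rests on its measured log2 fold change of −1.31, with WT+NU6102 not well above background. In CDK2 KO, FOXJ1 was the only one called, at least 2.80-fold lower than in WT (limma adjusted p = 0.0147).

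Of the protein kinase A pathway, 40 other genes were tested and 1 was called in R50 against WT, where 2.63% of all genes were called. PDE4B, a phosphodiesterase that breaks down cyclic AMP, had normalized levels of 1.01 and 0.89 in WT, 0.32 and 0.36 after NU6102, 1.98 and 2.01 in CDK2 KO and −6.88 and −5.42 in R50. It was not well above background on either R50 array and was at least 54.2-fold lower there than in WT (limma adjusted p = 0.000687), a larger difference than that of ARMC4 or PKIB, which were chosen among genes measured on both sides. Its order of groups was that of PKIB. In CDK2 KO against WT it was 2.06-fold higher and not called (limma adjusted p = 0.131). The fit shares 1 estimate of spread over the 4 groups, including the R50 arrays at background. This p therefore does not measure the spread of the WT and CDK2 KO arrays alone.

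The inhibitors and subunits of the kinase showed smaller differences. PKIA, the inhibitor closest in function to PKIB, had levels of −0.43 and −0.50 in WT, −1.18 and −1.24 after NU6102, 0.12 and 0.08 in CDK2 KO and −0.86 and −0.70 in R50. Its differences from WT were −0.32 in R50 (limma adjusted p = 0.0279) and 0.56 in CDK2 KO (limma adjusted p = 0.00332), each below the minimum fold. PKIG, the third inhibitor, was at 0.00 in R50 (limma adjusted p = 0.983) and 0.18 in CDK2 KO (limma adjusted p = 0.263). PRKACB, a catalytic subunit that these inhibitors bind, fell by 1.34 in CDK2 KO against WT (limma adjusted p = 0.000143), the only gene of the 40 called there, and was at 0.45 in R50. PRKAR1B, a regulatory subunit, rose by 1.89 after NU6102 (limma adjusted p = 8.7e-05). With NR4A3 at 2.23 higher and FOS, ADCY7 and AKAP12 at −2.89, −1.27 and −1.18, these were the 5 genes of the 40 called after NU6102, where 6.3% of all genes were called. The median of the list was −0.01 in R50, 0.11 in CDK2 KO and 0.06 after NU6102.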

How the data were processed

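RNA of 8 HCT-116 cultures, 2 per group, was hybridized to one-colour arrays. The authors deposited scanner files of Agilent Feature Extraction 11.5.1.1, named in the submitters' processing notes, whose intensity is background-subtracted and not normalized between arrays. A second table deposited by the authors holds log2 values of 28719 probes after GeneSpring processing, with every probe set to a median near 0, and served as an alternative.

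Control and outlier spots were left out, the log2 intensity was set relative to its 75th percentile on the array, and repeated spots were averaged per probe. From 50599 probes, 31 lacked a usable spot on an array, and the 28677 that stood well above background on both arrays of some group were tested. limma 3.58.1 in R 4.3.3, with the package data.table (1.17.8), fitted the 4 groups together, two-sided, with Benjamini-Hochberg adjustment. The script was tested on simulated data. Only 2 arrays per group limit the precision. The 21595 gene names tested include unnamed transcripts. Figures used Python 3.11.15 and matplotlib 3.10.9.

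The 4 genes and all lists were chosen with earlier results of these data known. Other genes named are, for each of the 4, the 5 most correlated, the nearest tested neighbours, those next in order of size, and up to 3 called genes per direction in each list and comparison. SLURP1, LYNX1, GML, LY6G5C, DNAH1, GRP, TUBB3, ENO2, MAP2, SNAP25, FGFR1, NCAM2, TTC25, CCDC151, PKIA, PKIG, NKG7, CD3E, CCDC114's level in R50, SMPDL3A's change in CDK2 KO and the genes called near each probe were named after their values were seen. Alternatives were normexp (offset 50), the authors' processed values, quantile normalization, no filter on dim probes or a stricter one, a replicate block, a trended prior, 1 slide alone, an unpaired t-test, other probes and leaving out each array. The study's methods name that t-test for its experiments in general and a one-way ANOVA for the arrays. A supplementary legend of the study also names a t-test for the array genes that differed in R50.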

Additional observations from a re-analysis of the deposited data

How the results depend on the processing

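No difference of the 4 genes changed sign under any alternative. With normexp background correction the R50 differences from WT moved to 4.67 for PSCA, 4.18 for NCAM1, −3.05 for ARMC4 and −2.82 for PKIB. On the other NCAM1 probe, A_23_P1740, the differences were 2.60 in R50, −0.15 after NU6102 and −0.91 in CDK2 KO against WT, the last 2 with adjusted p of 0.888 and 0.394. With the methods' t-test, which is not the test they name for the arrays, Benjamini-Hochberg adjusted, the CDK2 KO differences from WT of NCAM1 (−3.90, adjusted p = 0.0795) and ARMC4 (−1.32, adjusted p = 0.0538) and that of ARMC4 from WT+NU6102 (−0.44, adjusted p = 0.0632) no longer passed. That test on 2 arrays a group passed 34 probes in R50 against WT after adjustment and 7430 before. With quantile normalization NCAM1 in CDK2 KO against WT+NU6102 passed at −0.89 (adjusted p = 0.0216), and without CDK2 KO replicate 1 at −1.08, both groups being not well above background; leaving out each array in turn gave −1.08 to −0.19 there. It gave 5.20 to 5.32 for PSCA, 4.75 to 4.89 for NCAM1, −4.09 to −3.91 for ARMC4 and −3.99 to −3.87 for PKIB in R50 against WT. The stricter filter, on all 8 arrays, leaves out NCAM1.

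Called probes numbered 1861 after NU6102, 1360 in CDK2 KO and 742 in R50 against WT, and 3321 in CDK2 KO against WT+NU6102. In that order they were 631, 603, 319 and 1457 with normexp, 1135, 802, 384 and 2185 with the stricter filter, and, with the t-test, 972, 481 and 9 in the first 3. Replicate numbers did not pair the arrays, with correlations of deviations between −0.028 and 0.045, and with the replicate block the R50 difference of PSCA was 5.26 and no call of the 4 genes changed. Of 1568 list counts under alternatives, 86 moved by over 1.5 times. The cause of these shifts was not tested.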
